A study of Mus musculus with 12 samples.

Results

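The response of undifferentiated mesenchymal stem cells (MSCs) to FG-4592 was measured by RNAseq in 6 of the 12 libraries of the series, 3 from cells given vehicle and 3 from cells given FG-4592. It is described across 16484 of the 56350 annotated genes, those whose counts exceeded 10 in 3 or more libraries of the series. The cells were MPC2, a clone of a conditionally immortalized, temperature-sensitive mesenchymal line of the mouse, and both groups were kept at 33 °C, where the line proliferates. They were treated for 48 hours, either with the solvent DMSO (vehicle) or with FG-4592 (Roxadustat) at 50 µmol/L. The other 6 libraries came from the same line after 3 weeks at 37 °C in osteogenic media (osteocytes), with the same treatments, and they served here for the estimate of spread and for comparison. Temperature, media and differentiation cannot be told apart between the cell types, whereas vehicle and FG-4592 were compared at the same temperature. Nothing in the labels says that the 3 libraries of a group came from separate cultures, so the p-values measure the spread between these libraries, which may be technical.

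FG-4592 inhibits the prolyl hydroxylases (Egln1 to Egln3, also called PHDs) that use oxygen, iron and 2-oxoglutarate to mark hypoxia-inducible factor (HIF) alpha subunits for destruction by the VHL ubiquitin ligase. When the mark is not placed, HIF1α and HIF2α accumulate, pair with Arnt and bind the core motif ACGTG or GCGTG near their target genes. The known targets carry glucose uptake, glycolysis, lactate production, mitophagy, vessel growth, iron handling and collagen hydroxylation, and they include the hydroxylases themselves, a feedback loop. FG-4592 competes with 2-oxoglutarate, which other dioxygenases also use.

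Total counts ranged from 52829185 to 60219461 with vehicle and from 61072804 to 67885882 with FG-4592, so that every FG-4592 library was deeper than every vehicle library. Levels are given in CPM, counts scaled to a common normalized library total. A floor of 3 counts, the upper limit for a gene with no reads, equalled 0.0447 to 0.0545 CPM, depending on the library. Of 15 markers of mesenchymal stem and stromal cells, 14 were above 3 counts in all 6 libraries. They summed to 3545 to 3654 CPM with vehicle and 3480 to 3608 CPM with FG-4592, while Thy1, a defining surface marker, was at 0 in all 6. Single markers did change. Of the 14 tested, 3 (21.4%) were lowered past the cutoffs given below and 0 raised (median log2 fold change −0.29), where 5.17% of all genes tested were lowered. Markers of blood cells (3 of 13 above 3 counts in all 6 libraries), endothelium (3 of 9) and skeletal muscle (2 of 8) summed to less than 10 CPM in every library. Mitochondrial transcripts made up between 2.56% and 2.83% of the counts with vehicle and between 2.30% and 2.50% with FG-4592. The filter's edge was narrow, since the third-highest count over the 12 libraries was 11 in 260 genes just inside it and 10 in 236 genes just outside it.

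FG-4592 raised 679 genes (4.12% of those tested) and lowered 853 (5.17%). A call required a log2 fold change beyond 1 in either direction together with an FDR, the false discovery rate, below 0.05. The rises were the larger of the changes at the top of the scale, with 149 genes raised and 117 lowered by more than 3 on the log2 scale, and 55 raised and 22 lowered by more than 5. The floor limits these sizes, since 85 raised and 110 lowered genes were at it in their lower group. In the higher group the median level was 4.01 CPM for raised and 1.61 CPM for lowered genes. The raised genes held between 2.40% and 2.44% of the counts of each vehicle library and between 8.13% and 8.39% of those of each FG-4592 library, and the lowered genes between 3.16% and 3.26% and between 1.07% and 1.11%. The lowered genes were mostly of low level, since 435 of them had a mean count under 100 even with vehicle, against 239 of the raised genes with FG-4592. Smaller shifts were widespread, with 2904 genes higher and 3369 lower at an FDR under 0.05 whatever their size, 38.1% of the genes tested. Throughout, log2 fold changes carry the standard error (SE) of the edgeR fit, and means in CPM carry the SD of 3 libraries. The p-values are those of edgeR's quasi-likelihood test, adjusted by Benjamini-Hochberg across the 16484 genes. A member of a gene list is called raised or lowered only past both cutoffs.

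**Figure D1:**
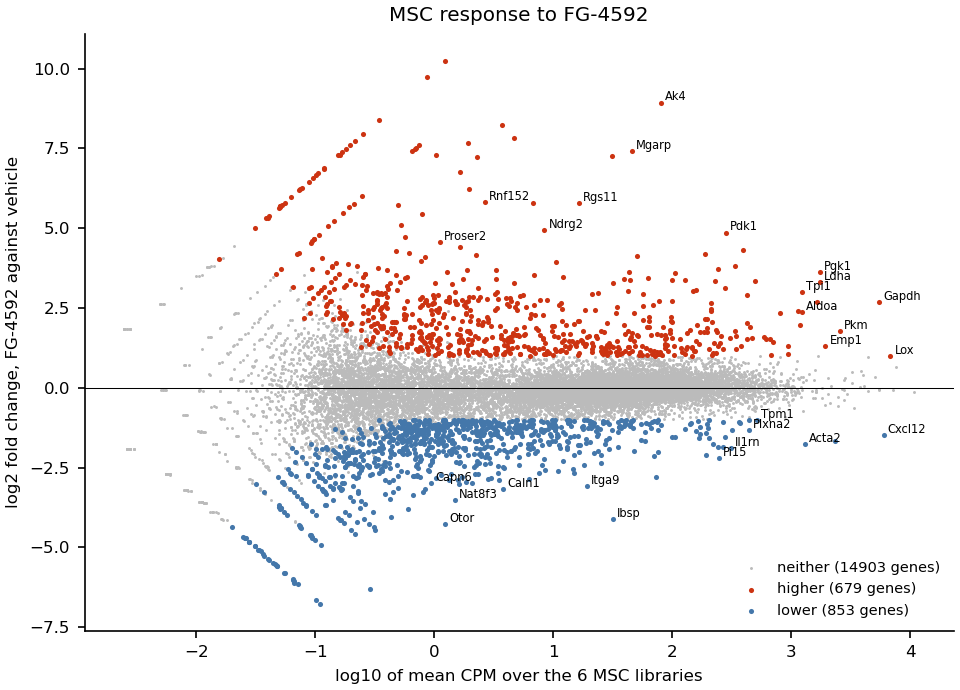
Each point is a gene, placed by the log10 of its mean CPM over the 6 MSC libraries and by its log2 fold change (FG-4592 against vehicle). The 679 raised genes (red) reach farther from 0 than the 853 lowered genes (blue), and glycolysis genes such as Gapdh and Pgk1 stand at high level, while the straight rays at low level are genes with 0 counts in some libraries (49 genes at 0 in all 6 were not drawn).

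Ak4, which encodes a mitochondrial adenylate kinase, had the largest fold rise among protein-coding genes whose mean count reached 100 in the higher group and exceeded 3 in the lower. Its exonic reads (mm10, chr4:101419277-101466995, + strand) gave 0.145, 0.367 and 0.440 CPM with vehicle and 166, 156 and 158 CPM with FG-4592, and the groups lay far apart (log2 fold change 8.94 ± 0.47, adjusted p = 1.2e-12). Mgarp, another mitochondrial protein, stood at 0.926, 0.451 and 0.251 CPM with vehicle and 88.4, 94.2 and 90.7 CPM with FG-4592 (7.42 ± 0.27 on the log2 scale, and 8.05 without vehicle replicate 1). The third, 2610528A11Rik, had 0.690, 0.284 and 0.267 CPM with vehicle and 64.5, 61.7 and 59.1 CPM with FG-4592 (7.25 ± 0.30). These genes were close to silent in vehicle and well expressed in every FG-4592 library. Rgs11, a regulator of G protein signalling, rose by 5.79 ± 0.24 on the log2 scale, and Ndrg2, of the N-myc downstream regulated family, by 4.94 ± 0.20. Rnf152, a lysosomal ubiquitin ligase, rose by 5.83 and Proser2 by 4.57 ± 0.66. Their sizes rested on a few vehicle counts, since the rise was 7.60 without vehicle replicate 2 for Rnf152 and 6.82 without vehicle replicate 3 for Proser2. Some genes were at or under 3 counts in vehicle. Of these, Smtnl2 was at least 89.9-fold higher with FG-4592. Atp7b, a copper-exporting ATPase, was at least 75.6-fold higher and A2m, a protease inhibitor of plasma, at least 48.6-fold higher, each against a floor of 3 counts per library.

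Ibsp, which encodes bone sialoprotein, a mineral-binding protein of bone matrix, was the most abundant of the genes with the largest fold falls (mm10, chr5:104299171-104311469, + strand). It stood at 64.2, 59.3 and 55.3 CPM with vehicle and 3.04, 3.26 and 3.98 CPM with FG-4592, a fall of 4.12 ± 0.21 on the log2 scale (adjusted p = 3.4e-10). Itga9, an integrin alpha chain, had 33.0, 32.2 and 37.6 CPM with vehicle and 3.86, 3.78 and 4.42 CPM with FG-4592 and fell by 3.09 ± 0.088. The vehicle and FG-4592 libraries did not overlap for either gene, and the 3 libraries of each group were close together. Otor, a small secreted protein, fell by 4.26 ± 0.33, Nat8f3 by 3.52 ± 0.28, Caln1, a calcium-binding protein, by 3.16 ± 0.27 and Orm1, an acute-phase plasma protein, by 3.01 ± 0.31. Capn6, Rarres2, which encodes the chemoattractant chemerin, Apol6 and Prag1 fell by between 2.90 and 2.98 on the log2 scale. Among genes that ended at or under 3 counts, Mro was at least 12.1-fold lower, Tnfrsf19, a receptor of the TNF family, at least 9.07-fold lower and Slc16a4 at least 8.75-fold lower.

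Of the HIF subunits and their regulators, 2 of the 13 tested were raised and none was lowered (median log2 fold change 0.10, against −0.045 for all genes tested). Egln1, which encodes PHD2, the main oxygen sensor of most cells, was at 56.7, 57.3 and 57.5 CPM with vehicle and 488, 494 and 510.1 CPM with FG-4592 (3.12 ± 0.047, adjusted p = 2.2e-16), and all FG-4592 libraries lay well above all vehicle libraries. Vhl rose from 39.9 ± 1.49 to 90.8 ± 2.39 CPM (1.19 ± 0.056). Transcripts of the alpha subunits did not pass the cutoffs. Hif1a was at 264 ± 4.37 CPM with vehicle and 224 ± 3.71 CPM with FG-4592 (−0.24 ± 0.051, adjusted p = 0.0014). Epas1, which encodes HIF2α, was at 74.1 ± 1.21 CPM with vehicle and 78.8 ± 3.00 CPM with FG-4592 (0.09 ± 0.055, adjusted p = 0.22). Egln3, a hydroxylase gene that many cells induce through HIF, was at or under 3 counts in all 6 libraries.

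Genes known as feedback regulators and growth brakes of the HIF response were raised in 11 of the 20 tested, and none was lowered (median 1.30, and 0.51 without genes that share exonic bases). The libraries of vehicle and FG-4592 did not overlap for any of the 20, where 50.5% of all genes tested did not overlap. Ankrd37, an ankyrin-repeat protein, stood at 0.218, 0.267 and 0.220 CPM with vehicle and 13.6, 13.4 and 12.4 CPM with FG-4592 (5.79 ± 0.23), the largest rise of the group. Higd1a, a mitochondrial protein of the respiratory chain, rose by 3.58 ± 0.15, Fam162a, another mitochondrial protein, by 3.07 ± 0.082, and Ndrg1, a stress-induced growth suppressor, by 2.71 ± 0.085. Trib3, a pseudokinase of the stress response, rose by 3.30 ± 0.31. Mxi1, a MYC antagonist, rose by 1.89 ± 0.061 and the transcriptional repressor Bhlhe40 by 1.75 ± 0.055. Ddit4, an inhibitor of mTORC1, was at 34.0 ± 5.55 CPM with vehicle and 46.5 ± 5.88 CPM with FG-4592 and did not pass the cutoff on size (0.45 ± 0.13, adjusted p = 0.0093). Its response was larger in osteocytes by 1.02 on the log2 scale (adjusted p of the difference = 0.00058). Of the 11 raised genes, 9 share exonic bases with another gene, among them Ankrd37 (406 bases with Lrp2bp). So do 12 of the 20 tested and 35.5% of all genes tested. Reads in shared bases were counted for both genes. Removing such genes left 2 raised. Here and below they were removed whole, whatever the size of the overlap, so that the lower counts follow from the removal and do not test the calls.

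Promoter sequences are shown for 6 raised genes of different roles, so that the sequence before each start can be read beside the levels given here. They are RefSeq windows of GRCm38.p6, each of 300 bases from 250 before to 50 after an annotated start, read on the strand of the gene. Capitals mark ACGTG or GCGTG, the core of the HIF motif, on either strand (CACGT and CACGC on the printed one), and matches may overlap, as in CACGTG. Of all 32851 mouse windows in that table, 43.8% held at least 1 match. Among tested protein-coding genes with a window, 66.8% held a match (63.5% of those with a single window), so that a match is a description of the letters only. Egln1 has 2 matches in its window at chr8:124949205-124949504 (− strand), Ankrd37 4 at chr8:45999801-46000100 (− strand), Bnip3 5 at chr7:138909457-138909756 (− strand), Pgk1 2 at chrX:106186850-106187149 (+ strand) and P4ha2 4 at chr11:54100674-54100973 (+ strand). Tpi1, raised by 3.01 ± 0.043, has none at chr6:124814109-124814408 (− strand).
Egln1: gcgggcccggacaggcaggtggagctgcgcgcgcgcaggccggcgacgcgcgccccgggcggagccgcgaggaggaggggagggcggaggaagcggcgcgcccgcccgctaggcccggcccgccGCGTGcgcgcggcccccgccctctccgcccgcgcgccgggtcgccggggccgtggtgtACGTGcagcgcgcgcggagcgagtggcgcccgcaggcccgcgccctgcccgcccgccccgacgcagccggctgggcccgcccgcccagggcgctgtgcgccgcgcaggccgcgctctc
Ankrd37: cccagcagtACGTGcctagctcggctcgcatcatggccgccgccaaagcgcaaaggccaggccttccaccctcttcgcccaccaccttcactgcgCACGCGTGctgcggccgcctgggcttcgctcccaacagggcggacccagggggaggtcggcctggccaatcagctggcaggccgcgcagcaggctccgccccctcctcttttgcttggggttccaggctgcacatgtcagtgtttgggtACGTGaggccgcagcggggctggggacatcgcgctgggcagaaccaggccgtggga
Bnip3: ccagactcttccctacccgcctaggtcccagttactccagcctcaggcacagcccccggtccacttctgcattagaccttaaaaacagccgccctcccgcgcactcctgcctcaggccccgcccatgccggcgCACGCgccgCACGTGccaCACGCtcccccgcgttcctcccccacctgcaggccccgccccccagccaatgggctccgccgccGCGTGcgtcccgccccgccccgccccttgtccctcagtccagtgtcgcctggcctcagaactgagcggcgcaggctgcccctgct
Pgk1: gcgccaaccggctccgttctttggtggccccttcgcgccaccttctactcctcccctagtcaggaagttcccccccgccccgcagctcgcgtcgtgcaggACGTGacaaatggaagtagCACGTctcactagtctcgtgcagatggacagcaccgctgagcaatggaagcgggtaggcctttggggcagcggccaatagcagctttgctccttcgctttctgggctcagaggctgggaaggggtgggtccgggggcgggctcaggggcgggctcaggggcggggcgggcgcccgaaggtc
P4ha2: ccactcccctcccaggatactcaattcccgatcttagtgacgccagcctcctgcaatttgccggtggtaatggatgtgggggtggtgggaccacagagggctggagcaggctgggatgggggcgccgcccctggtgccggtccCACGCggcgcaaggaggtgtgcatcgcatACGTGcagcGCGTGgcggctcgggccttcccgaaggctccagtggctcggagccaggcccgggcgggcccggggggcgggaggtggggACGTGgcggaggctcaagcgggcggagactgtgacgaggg
Tpi1: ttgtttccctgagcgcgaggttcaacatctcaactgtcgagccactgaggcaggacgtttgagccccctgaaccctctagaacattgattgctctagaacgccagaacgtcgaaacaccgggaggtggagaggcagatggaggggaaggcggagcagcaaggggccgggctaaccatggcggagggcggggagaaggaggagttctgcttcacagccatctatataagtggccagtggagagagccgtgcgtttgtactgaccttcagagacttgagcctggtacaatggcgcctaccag
Whether raised genes hold the motif more often than other genes could not be read from these windows, because only 74.9% of the raised and 74.3% of the lowered protein-coding genes have an entry, under the 80% that such a comparison needs.

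Glucose uptake and glycolysis formed the most strongly raised list, with 15 of 20 tested genes raised, 1 lowered (2 without FG-4592 replicate 3) and a median log2 fold change of 2.36. Together its genes took between 0.472% and 0.499% of the length-scaled transcript levels (TPM) in the vehicle libraries and between 2.92% and 3.07% in the FG-4592 libraries. Every step from glucose entry to lactate had at least 1 raised gene. The entry transporter Slc2a1 (GLUT1) stood at 23.5, 22.7 and 22.03 CPM with vehicle and 238, 235 and 229 CPM with FG-4592 (3.36 ± 0.058, adjusted p = 7.6e-16). The hexokinase Hk2 had 10.1, 12.2 and 9.37 CPM with vehicle and 119, 113 and 113 CPM with FG-4592 (3.45 ± 0.089). Pgk1, the first step that yields ATP, had 271, 256 and 256 CPM with vehicle and 3281, 3185 and 3142 CPM with FG-4592 (3.62 ± 0.040, adjusted p = 1.5e-17). Ldha, which makes lactate from pyruvate, had 327, 317 and 311 CPM with vehicle and 3064, 3221 and 3156 CPM with FG-4592 (3.31 ± 0.044). The groups were an order of magnitude apart in each of these genes and the libraries within a group differed little. Gapdh, often used as a reference gene, went from 1468 ± 32.9 to 9502 ± 474 CPM (2.69 ± 0.042) and had the largest gain in CPM of the protein-coding genes past the cutoffs.

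Isoenzymes of the same step had different values. Of the phosphofructokinases, Pfkl went from 19.3 to 243 TPM and became the most abundant form, Pfkp went from 10.4 to 42.1 TPM, and Pfkm went from 91.3 to 103 TPM, which did not pass the cutoffs (0.25 ± 0.052). Hk1 went from 75.03 to 288 TPM and remained above Hk2, which went from 6.74 to 69.4 TPM. Of the lactate dehydrogenases, Ldha rose while Ldhb, the form that favours pyruvate, fell by 1.40 ± 0.11 on the log2 scale, from 18.9 to 6.78 TPM. The enolases Eno2 and Eno3, of nerve and muscle, did not pass the cutoffs (0.38 ± 0.17 and −0.76 ± 0.17), beside a rise of 2.69 ± 0.050 for Eno1. Of the lactate transporters, Slc16a1 (MCT1) rose by 1.30 ± 0.066. Slc16a3 (MCT4), a known HIF target, was near the floor at 0.0547 ± 0.0588 CPM with vehicle and 0.0467 ± 0.0130 CPM with FG-4592 (−0.23 ± 1.01, adjusted p = 0.88). Bsg, the chaperone of both transporters, was at 363, 364 and 346 CPM with vehicle and 1876, 1971 and 1892 CPM with FG-4592 (2.42 ± 0.062). Of the 15 raised genes, 8 share exonic bases with another gene, as do 9 of the 20 tested, and removing such genes whole left 7 raised. Gapdh matches 74 other annotated genes over at least 100 bases at 98% identity or more, so that reads of such copies and of Gapdh are assigned with some uncertainty.

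**Figure D2:**
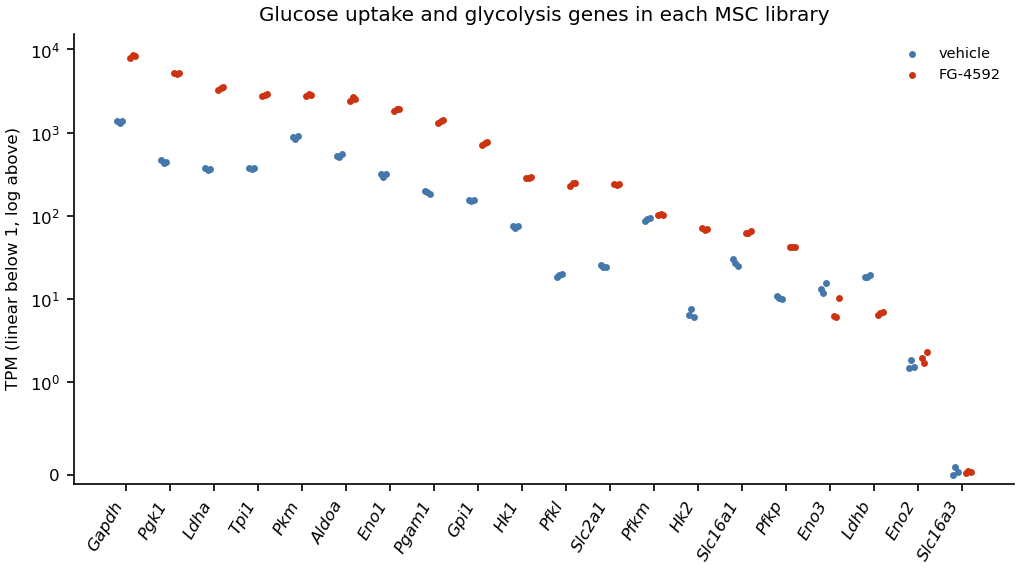
Glucose uptake and glycolysis genes are ordered by their mean level with FG-4592, and each point is the TPM of a gene in 1 library (blue, vehicle; red, FG-4592; linear axis under 1, log axis above). The FG-4592 points lie above the vehicle points for the 15 raised genes, whereas Ldhb and Eno3 lie below and Slc16a3 stays near 0 in both groups.

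Pdk1, the kinase that switches off pyruvate dehydrogenase, had the largest rise of the genes that set the fate of pyruvate and fructose phosphates. It stood at 17.9, 19.4 and 18.6 CPM with vehicle and 541, 536 and 553 CPM with FG-4592 (4.87 ± 0.063, adjusted p = 6.9e-17). Of the 11 such genes tested, Pdk3 also rose (1.33 ± 0.10), whereas Pfkfb4 and Pfkfb3, which make the activator of phosphofructokinase, did not pass the cutoffs (0.44 ± 0.12 and −0.39 ± 0.084). Genes of glycogen metabolism were raised in 6 of 14 tested (median 0.48), with none lowered. The branching enzyme Gbe1 went from 40.9 ± 1.21 to 412 ± 16.8 CPM (3.33 ± 0.059). The synthase Gys1 rose from 64.7 ± 2.95 to 357 ± 14.1 CPM (2.46 ± 0.050) and the phosphatase Epm2a from 6.54 ± 0.483 to 80.2 ± 4.604 CPM (3.62 ± 0.085). Pygl, the phosphorylase of liver, rose by 5.71 ± 1.16 from near the floor, and by 8.92 without vehicle replicate 3. Ppp1r3c, which targets the phosphatase to glycogen, was at −0.57 ± 0.065 on the log2 scale.

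Few mitochondrial energy genes passed the cutoffs. None of 26 genes of pyruvate oxidation and the TCA cycle was called (median −0.17), although 12 were lower at an FDR under 0.05, as were 3369 of all 16484 genes tested. Of 73 nuclear-encoded subunits of the respiratory chain and ATP synthase, 67 had a log2 fold change under 0 (median −0.36), as did 54.9% of all genes tested, 32 of them at an FDR under 0.05, yet only Ndufa4, a subunit of cytochrome c oxidase, was lowered (2 genes without FG-4592 replicate 1). It stood at 166, 176 and 133 CPM with vehicle and 65.1, 51.5 and 44.7 CPM with FG-4592 (−1.56 ± 0.18, adjusted p = 4.3e-06). Cox7a1, the muscle form of another oxidase subunit, rose by 3.53 ± 0.54 from a low level and Ndufv3 by 1.11 ± 0.14, the latter reaching only 0.99 without FG-4592 replicate 1. Ndufa4l2, the HIF-induced partner of Ndufa4 in other cells, was near the floor at 0.0841 ± 0.0288 CPM with vehicle and 0.0795 ± 0.0705 CPM with FG-4592 (−0.09 ± 1.03). None of the 13 mitochondrially encoded subunits was called (median −0.14). Of 20 genes of fatty acid oxidation, Echs1 was lowered at the edge of the cutoff (−1.004 ± 0.068, and between −0.96 and −0.99 without vehicle replicate 1, 2 or 3 or FG-4592 replicate 1). Its call was also lost with DESeq2, with RLE size factors, with the 6 MSC libraries alone and after thinning (−0.97 to −0.998), and it shares exonic bases with another gene.

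Of 21 mitophagy receptors and autophagy genes, only the receptors Bnip3 and Bnip3l were raised (median of the list 0.04, below 0 with scaling by library size alone). Bnip3 stood at 37.6, 33.7 and 41.97 CPM with vehicle and 719.8, 769.7 and 752 CPM with FG-4592 (4.31 ± 0.077, adjusted p = 2.2e-15). Bnip3l was at 189 ± 8.66 CPM with vehicle and 706 ± 4.32 CPM with FG-4592 (1.90 ± 0.048). The remaining 19 genes did not pass the cutoffs. Bnip3 shares 504 exonic bases with Gm45507 and is not among the genes tested without such sharing, where 1 raised gene was counted.

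Iron genes were raised in 2 of 24 tested, with a median of 0.01, whose sign turned with upper-quartile factors, with scaling by library size alone and without FG-4592 replicate 1. Hmox1, which breaks down heme, had 90.2, 93.8 and 83.0 CPM with vehicle and 908, 925 and 868 CPM with FG-4592 (3.34 ± 0.054, adjusted p = 3.7e-16). Tfrc, the transferrin receptor through which cells take up iron, had 20.6, 20.4 and 18.01 CPM with vehicle and 120.4, 112 and 120.3 CPM with FG-4592 (2.58 ± 0.086, adjusted p = 1.6e-12). Both were higher in every FG-4592 library, and the rise of Tfrc was smaller in osteocytes by 2.06 on the log2 scale (adjusted p of the difference = 9.7e-09). Fth1, the ferritin heavy chain, was at 2521 ± 79.2 CPM with vehicle and 3142 ± 94.2 CPM with FG-4592 (0.32 ± 0.060). Slc40a1, the iron exporter, was at 6.72 ± 0.441 CPM with vehicle and 6.15 ± 0.366 CPM with FG-4592 (−0.13 ± 0.096). Of 13 carbonic anhydrases and acid transporters, the bicarbonate transporter Slc4a4 rose and Car2 fell. Both were at the edge of the cutoff (1.01 ± 0.077 and −1.06 ± 0.15, but 0.95 and −0.98 without FG-4592 replicate 1, and −0.98 without vehicle replicate 2 for Car2). The HIF target Car9 lay near the floor (0.0334 ± 0.0154 CPM with vehicle and 0.0515 ± 0.0522 CPM with FG-4592).

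Other enzymes that use 2-oxoglutarate and iron were measured too. Of 12 collagen prolyl and lysyl hydroxylases, P4ha2, P4ha1 and Plod2 were raised and none was lowered (median 0.62). P4ha2, a catalytic subunit of collagen prolyl 4-hydroxylase, stood at 67.1, 63.5 and 70.8 CPM with vehicle and 348, 355 and 358 CPM with FG-4592 (2.40 ± 0.052). P4ha1 rose by 1.86 ± 0.060 and the lysyl hydroxylase Plod2 by 1.83 ± 0.045. Of 22 JmjC histone demethylases, 4 were raised, namely Hr (2.75 ± 0.18), Jmjd6 (2.11 ± 0.052), Kdm3a (1.57 ± 0.058) and Kdm4b (1.34 ± 0.054), the last pair acting on methylated histone H3 lysines. Among 12 TET, AlkB and DNA methyltransferase genes only Alkbh5, an RNA demethylase, was raised (1.31 ± 0.048), and Tet1 (0.36 ± 0.11) and Dnmt1 (−0.03 ± 0.080) were not called.

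Angiogenic and vasoactive factors were raised in 7 of 30 tested and lowered in none (1 lowered without FG-4592 replicate 3 or with scaling by library size alone). Their median was 0.48, and it was 0.20 with the 6 MSC libraries alone and 0.30 without FG-4592 replicate 2. Vegfa, the main vessel growth factor, was at 78.4, 86.0 and 97.3 CPM with vehicle and 208, 204 and 207 CPM with FG-4592 (1.24 ± 0.061, adjusted p = 1.6e-10). Angptl4, an inhibitor of lipoprotein lipase, had 5.94, 6.18 and 5.58 CPM with vehicle and 55.5, 57.3 and 60.3 CPM with FG-4592 (3.29 ± 0.099). Both genes were higher in every FG-4592 library. Apln, the ligand of the apelin receptor, rose by 2.10 ± 0.082 and the vasoconstrictor Edn1 by 1.62 ± 0.41. Adm2 was at 0 in all vehicle libraries and at 1.75 ± 0.245 CPM with FG-4592. Nos2 rose by 5.22 from the floor (7.13 without vehicle replicate 3 and 4.31 without FG-4592 replicate 3). Pgf, a relative of Vegfa, was at 18.9 ± 0.904 CPM with vehicle and 12.8 ± 0.304 CPM with FG-4592 (−0.56 ± 0.11). Its response in osteocytes was higher by 2.36 on the log2 scale (adjusted p of the difference = 2.6e-08). Adm, a common HIF target, lay at or near the floor (0.0167 ± 0.0289 CPM with vehicle and 0.0298 ± 0.0516 CPM with FG-4592).

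**Figure D3:**
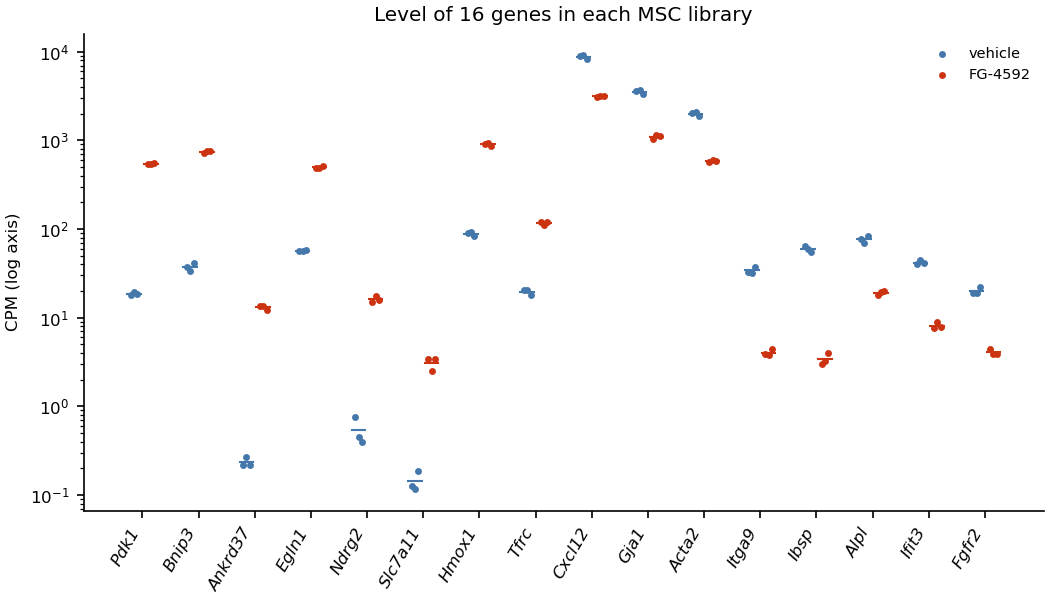
Levels of 16 genes in CPM on a log axis, with a point for each of the 3 vehicle (blue) and 3 FG-4592 (red) MSC libraries and a bar at each mean. The 8 genes at the left, from Pdk1 to Tfrc, are higher in every FG-4592 library, and the 8 at the right, from Cxcl12 to Fgfr2, are lower in every one.

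Some antioxidant and glutathione genes were raised. Of 25 genes of amino acid import and of serine and glutathione synthesis, 7 were raised and 1 was lowered (median 0.25). Slc7a11, the cystine importer, went from near silence, with 0.127, 0.117 and 0.189 CPM with vehicle and 3.46, 2.49 and 3.42 CPM with FG-4592 (4.41 ± 0.52, adjusted p = 4.0e-06). Gclm and Gclc, the subunits of the enzyme that starts glutathione synthesis, rose by 2.15 ± 0.055 and 1.14 ± 0.050, and Gsr, which regenerates glutathione, by 1.33 ± 0.064. Mthfd1l, of mitochondrial one-carbon metabolism, rose by 2.65 ± 0.053, whereas the glutathione peroxidase Gpx1 fell by 1.41 ± 0.076. The serine gene Psat1 (0.46 ± 0.084) and Asns (0.02 ± 0.064), a target of the amino acid response, were not called. Among 22 NRF2 antioxidant and NADPH-supplying genes, 4 were raised and 1 lowered (median 0.50). Nqo1, a quinone reductase, had 129.5, 138 and 110.2 CPM with vehicle and 418, 387 and 358 CPM with FG-4592 (1.62 ± 0.076). Srxn1 rose by 1.61 ± 0.051 and Pgd by 1.42 ± 0.064, Sod3 fell by 1.14 ± 0.077, and Hmox1 was the fourth raised member. Of 26 genes of ER folding and the unfolded protein response, Ero1l, an oxidase of disulfide formation, went from 45.2 ± 3.23 to 631 ± 19.2 CPM (3.804 ± 0.079). Chac1 rose by 1.42 ± 0.37 and Atf3 by 1.09 ± 0.29 (0.94 without vehicle replicate 2 and 0.99 without FG-4592 replicate 3). The chaperone Hspa5 was at 759 ± 41.2 CPM with vehicle and 761 ± 35.0 CPM with FG-4592 (0.00 ± 0.068) and Ddit3 at 0.53 ± 0.12.

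Clock genes had a median of 0.74 (0.46 without genes that share exonic bases), with 5 of 17 raised and none lowered. Ciart, a repressor of the clock, had 0.945, 1.45 and 1.45 CPM with vehicle and 19.3, 20.1 and 20.3 CPM with FG-4592 (3.95 ± 0.16, adjusted p = 1.6e-11). Npas2 rose by 2.20 ± 0.37, and Rora, Bhlhe40 and Bhlhe41, all members of the HIF feedback list too, rose by between 1.75 and 1.80. The core genes Arntl (0.74 ± 0.084), Dbp (−0.15 ± 0.11) and Per2 (−0.40 ± 0.092) did not pass the cutoffs. Of the 5 raised genes, 3 share exonic bases with another gene, as do 8 of the 17 tested, and removing such genes whole left 2 raised.

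Cxcl12, the stromal chemokine that holds blood stem cells in their niche (mm10, chr6:117168535-117181367, + strand), had the largest loss in CPM of the protein-coding genes past the cutoffs. It stood at 8897, 9094 and 8202 CPM with vehicle and 3109, 3185 and 3169.6 CPM with FG-4592 (−1.47 ± 0.047, adjusted p = 6.8e-13), and every vehicle library was above every FG-4592 library. Of the 23 stromal chemokines and cytokines tested, Mif, a cytokine that HIF can induce, was raised (3.04 ± 0.082). Cxcl16 (−3.26 ± 0.42), Cxcl12, Cxcl1 (−1.08 ± 0.11) and Ccl9 (−1.03 ± 0.14) were lowered. The last pair was at the edge of the cutoff, and 2 lowered genes were counted without vehicle replicate 2 or without FG-4592 replicate 2. Cxcl16 shares 552 exonic bases with Zmynd15, and 2 lowered genes were counted without such genes. Ccl2 (−0.28 ± 0.16) and Il6, near the floor (−0.24 ± 0.87), were not called. Il1rn, the antagonist of the IL-1 receptor, also ranked among the largest losses in CPM, with 504, 515 and 450.1 CPM with vehicle and 130.1, 135 and 132 CPM with FG-4592 (−1.88 ± 0.070).

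Interferon-stimulated genes had the lowest median of all lists (−1.18), with 18 of 36 lowered, none raised and 30 lower at an FDR under 0.05. Of all 16484 genes tested, 3369 were lower at that FDR. Ifit3, an RNA-binding antiviral protein, had 40.3, 44.5 and 41.1 CPM with vehicle and 7.67, 8.85 and 7.89 CPM with FG-4592 (−2.37 ± 0.12, adjusted p = 3.5e-10). Its neighbour Ifit3b, with a closely related product, fell by 2.58 ± 0.16. Isg15, a ubiquitin-like modifier, was at 8.77, 7.06 and 6.63 CPM with vehicle and 1.66, 2.29 and 2.28 CPM with FG-4592 (−1.85 ± 0.23). Usp18, which removes it, fell by 2.13 ± 0.33. The groups did not overlap in these genes. Ifit1 fell by 1.72 ± 0.21, Gbp2 by 1.55 ± 0.087 and Ifi44 by 1.85 ± 0.21. The falls of Mx1 (−4.12 ± 1.31) and Oas2 (−3.18 ± 0.81) rested on low counts, and were −5.59 without FG-4592 replicate 2 and −3.89 without FG-4592 replicate 1. Of 16 MHC class I genes, Erap1 (−1.12 ± 0.075), H2-Q6 (−2.41 ± 0.57, and −3.58 without FG-4592 replicate 1) and H2-Q7 were lowered. H2-Q7 had only 4, 4 and 3 counts with vehicle and 0 with FG-4592, at least 1.31-fold lower against the floor. The major genes B2m (−0.08 ± 0.044) and H2-K1 (0.26 ± 0.051) were not called, and H2-Q6 matches 8 other genes nearly identically. Summed blood cell markers went from between 7.00 and 7.53 CPM to between 3.98 and 5.35 CPM, and their part in these falls was not tested. Of these markers, Itga2b, a platelet integrin, was lowered, from 3.63 ± 0.245 to 1.63 ± 0.234 CPM (−1.16 ± 0.27), while the defining marker Ptprc (CD45) had 1 count in 1 vehicle library and 0 in the other five, and Itgam was at 0 in all 6.

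Genes of the contractile apparatus were lowered in 11 of 23 tested, with none raised and a median of −0.57. Without genes that share exonic bases, 7 lowered genes were counted and the median was −1.30. Acta2, smooth muscle actin, had 2024, 2107 and 1896 CPM with vehicle and 576, 606 and 586 CPM with FG-4592 (−1.77 ± 0.12, adjusted p = 6.2e-09). Myl9, a myosin light chain, had 115, 118 and 109.9 CPM with vehicle and 25.3, 26.2 and 26.3 CPM with FG-4592 (−2.14 ± 0.11). Mylk, its kinase, had 41.2, 44.1 and 39.5 CPM with vehicle and 13.7, 14.2 and 12.2 CPM with FG-4592 (−1.64 ± 0.061). In each the FG-4592 libraries lay entirely below the vehicle libraries. Actg2 fell by 1.93 ± 0.13, Lmod1 by 1.67 ± 0.11, Cnn1 by 2.64 ± 0.62 and Tagln by 1.17 ± 0.22. Actc1, at −4.37 ± 1.39 (−5.94 without FG-4592 replicate 1), had few counts. So did Myh11, at −2.82 ± 0.97 (not called without vehicle replicate 1 or 2 or FG-4592 replicate 2, with log2 fold changes of −2.65, −2.51 and −2.24, and −3.48 without FG-4592 replicate 3). Tpm1, of higher level, was at the edge of the cutoff (−1.004 ± 0.048, and between −0.96 and −0.99 without vehicle replicate 1 or 2 or FG-4592 replicate 2 or 3). Ccn2, a secreted matrix regulator, was at 188 ± 14.2 CPM with vehicle and 153 ± 12.1 CPM with FG-4592 (−0.30 ± 0.082). The 8 skeletal muscle markers summed to 8.17 to 9.92 CPM with vehicle and 3.59 to 4.45 CPM with FG-4592, with 3 of them at 0 in all libraries, and their part in these falls was not tested. Des made up most of each sum, at 8.03 ± 0.566 CPM with vehicle and 2.84 ± 0.562 CPM with FG-4592 (−1.50 ± 0.16). Tnnt3, of few counts, was lowered too, while Mylpf (0.59 ± 0.38) and Myh3 (−0.004 ± 1.04) were not called.

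Matrix genes moved in both directions. Among 32 collagen chains, the fibrillar Col1a1 (2799 ± 197 CPM with vehicle and 2693 ± 106 CPM with FG-4592, −0.06 ± 0.093) and Col1a2 (5529.7 ± 95.4 CPM with vehicle and 5259 ± 93.4 CPM with FG-4592, −0.07 ± 0.054) were not called. Col3a1 was lower by less than the cutoff (−0.90 ± 0.089), while Col27a1 (−2.61 ± 0.12), Col4a4 (−2.14 ± 0.35) and Col18a1 (−1.27 ± 0.23) were lowered and Col15a1 was raised (1.21 ± 0.073). The fourth lowered chain, Col23a1 (−1.60 ± 0.60), lost its call without any 1 of the other libraries and kept it without FG-4592 replicate 2 (−2.65). Without vehicle replicate 3, 3 chains were raised. Lox, the enzyme that crosslinks collagen and elastin, was among the largest gains in CPM, with 4461, 4429 and 4600.4 CPM with vehicle and 8774, 8947 and 9397 CPM with FG-4592 (1.01 ± 0.096, and 0.98 without FG-4592 replicate 3). It was the only raised gene of 20 lysyl oxidases and elastic fibre genes, with 3 raised genes without FG-4592 replicate 1 and none with scaling by library size alone or with upper-quartile factors, each with 1 lowered gene. Eln, which encodes elastin, was counted 0, 1 and 5 times in the vehicle libraries and 1, 83 and 0 times in the FG-4592 libraries, so that FG-4592 replicate 2 alone was high (3.62 ± 1.96, adjusted p = 0.055, and −1.81 without that library). Of 24 proteoglycans and matrix glycoproteins, Nid1, a basement membrane linker, had 528, 529 and 538 CPM with vehicle and 1355, 1296 and 1341 CPM with FG-4592 (1.32 ± 0.038). Its relative Nid2 had 347, 351 and 378 CPM with vehicle and 160.3, 161 and 185 CPM with FG-4592 (−1.09 ± 0.057). Tnc fell by 2.01 ± 0.079, Ogn by 1.77 ± 0.089, Postn by 1.52 ± 0.28, Comp by 1.34 ± 0.20 and Prelp by 1.23 ± 0.063, and Has1 rose by 2.26 ± 0.42. Of these glycoprotein genes, 3 lowered ones were counted without genes that share exonic bases. Fn1 (0.64 ± 0.056), Bgn (−0.10 ± 0.045) and Dcn (−0.67 ± 0.091) were not called. Of 27 matrix proteases and inhibitors, Timp3 rose by 1.95 ± 0.091 (it shares 1733 of 8144 exonic bases with Syn3, and no gene of the list was raised without such genes) and Timp1 by less than the cutoff (0.93 ± 0.080, and 1.00 without vehicle replicate 1). Mmp2 (−0.20 ± 0.049) and Mmp13 (−0.59 ± 0.18) were not called, and 4 low-level genes were lowered, among them Mmp15 (−1.72 ± 0.40).

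Bone-forming genes included both raised and lowered members. Of 19 genes of mineralization and osteocytes, 5 were lowered and 1 was raised (median −0.20, −0.48 without genes that share exonic bases, −0.43 without vehicle replicate 1 and −0.33 without FG-4592 replicate 3). The list's share of TPM was between 0.920% and 0.959% in the vehicle libraries and between 1.07% and 1.09% in the FG-4592 libraries, whereas its share of counts, not scaled by length, was between 0.771% and 0.789% with vehicle and between 0.599% and 0.628% with FG-4592. Spp1, which encodes osteopontin, was its most abundant member per length (TPM), with 3155, 3103 and 3211 CPM with vehicle and 4639, 4562 and 4332 CPM with FG-4592, higher by less than the cutoff (0.52 ± 0.088, adjusted p = 0.0002). Alpl, the alkaline phosphatase needed for mineral growth, had 76.6, 69.4 and 83.7 CPM with vehicle and 17.9, 19.7 and 20.2 CPM with FG-4592 (−1.99 ± 0.11, adjusted p = 4.8e-10). Gja1, the connexin 43 of cell-to-cell channels, had 3648, 3662 and 3309.8 CPM with vehicle and 1047, 1163 and 1109 CPM with FG-4592 (−1.68 ± 0.062), the loss in CPM next in size to that of Cxcl12. Phospho1, which supplies phosphate in matrix vesicles, went the other way, with 4.05, 3.77 and 4.70 CPM with vehicle and 14.7, 17.3 and 15.9 CPM with FG-4592 (1.93 ± 0.17). It shares 1818 of its 2029 exonic bases with Zfp652, and reads there were counted for both. Ibsp, described above, had the largest fall of the list, and Dmp1 (−2.44 ± 0.50, and −3.37 without FG-4592 replicate 2) and Phex (−1.53 ± 0.37, and −2.24 without FG-4592 replicate 1) fell from about 1 CPM. Of 19 osteoblast lineage transcription factors, Dlx5 (−1.20 ± 0.086) and Dlx6 (−1.22 ± 0.14) fell and Dlx3 rose (1.68 ± 0.061). Runx2 (128 ± 0.422 CPM with vehicle and 117 ± 1.46 CPM with FG-4592, −0.14 ± 0.044) was not called and Sp7 (osterix) was lower by less than the cutoff (66.5 ± 1.19 CPM with vehicle and 36.3 ± 1.96 CPM with FG-4592, −0.87 ± 0.054, adjusted p = 2.4e-09). The 6 osteocyte markers, of which 3 were above 3 counts in all 6 libraries, summed to 54.6 to 79.2 CPM with vehicle and 40.7 to 49.9 CPM with FG-4592. Of these, Irx5 made up nearly all of each sum, with 52.7, 64.2 and 76.1 CPM with vehicle and 39.9, 49.2 and 45.1 CPM with FG-4592 (−0.52 ± 0.12), and was not called.

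Genes of other fates of mesenchymal cells were counted too. Of 11 chondrogenic factors and cartilage genes, 3 of low level were lowered and none was raised (1 without vehicle replicate 3). The median was −0.82, but −0.15 with the 6 MSC libraries alone and −0.49 after thinning to the smallest library. Sox9, the lead factor of cartilage, was at 84.2 ± 4.34 CPM with vehicle and 154 ± 8.40 CPM with FG-4592 (0.87 ± 0.069, adjusted p = 4.9e-08), higher by less than the cutoff. Of 24 adipocyte and lipid storage genes, Hilpda, an inhibitor of fat breakdown, went from 5.33 ± 0.299 to 41.9 ± 1.29 CPM (2.98 ± 0.085), Dgat2 rose by 1.18 ± 0.13 and Adipoq fell by 1.44 ± 0.13. Pparg was at −0.21 ± 0.052 and the droplet coat gene Plin2 at 0.74 ± 0.058. The median of 0.02 turned below 0 with upper-quartile factors, with scaling by library size alone, without genes that share exonic bases and without FG-4592 replicate 1. Of 26 genes of cholesterol synthesis, uptake and efflux, the exporter Abca1 (−1.59 ± 0.065) and its regulator Nr1h3 (−1.12 ± 0.11) fell, and Insig2 (0.92 ± 0.060) was not called. The median of that list was 0.08 in MSCs, below 0 with scaling by library size alone, beside −0.62 in osteocytes.

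Signalling genes of 5 families were compared. Of 33 WNT genes, 7 were lowered and 1 was raised (median −0.45). The receptor Fzd5 had 143, 152 and 146 CPM with vehicle and 49.7, 47.7 and 53.2 CPM with FG-4592 (−1.55 ± 0.051). Fzd4 was at −1.75 ± 0.10, the antagonist Wif1 at −1.50 ± 0.13 and the feedback inhibitor Nkd1 at −1.96 ± 0.16, beside a rise in the coreceptor Lrp5 (1.42 ± 0.063). Wnt5a (−0.45 ± 0.090) and Axin2 (−1.02 ± 0.43), a common readout of the pathway, did not pass, although Axin2 passed without vehicle replicate 2 (−1.25) or FG-4592 replicate 2 (−1.60). Wnt5b fell by 2.08 ± 0.48 (−2.86 without FG-4592 replicate 2). Of 40 BMP and TGF-beta genes, Tgfb3 had 251.3, 261 and 242 CPM with vehicle and 84.8, 86.3 and 80.7 CPM with FG-4592 (−1.58 ± 0.050). The antagonists Fst (−1.90 ± 0.083) and Nog (−1.89 ± 0.38) fell with Tgfbi (−1.35 ± 0.13) and Id4 (−2.78 ± 0.57), while Fstl3 rose (1.62 ± 0.15). The ligands Bmp4 (−0.32 ± 0.058) and Tgfb2 (−0.49 ± 0.064) and the target Id1 (−0.85 ± 0.11) were not called (median −0.22, −0.053 without vehicle replicate 3 or without genes that share exonic bases and −0.13 with the 6 MSC libraries alone). Of 17 Notch genes, the ligands Jag1 (−1.13 ± 0.061), Dll1 (−1.56 ± 0.27) and Dlk2 (−1.30 ± 0.34) and the target Hes1 (−1.25 ± 0.16) fell. Hey2 rose from 0 in all vehicle libraries to 0.363 ± 0.111 CPM, and Notch3 (0.48 ± 0.054) and Hey1 (−0.46 ± 0.16) were not called (median −0.46, −0.21 without genes that share exonic bases and −0.23 after thinning). Of 19 FGF genes, Fgfr2, with 18.8, 18.8 and 22.5 CPM with vehicle and 4.397, 3.93 and 3.87 CPM with FG-4592 (−2.30 ± 0.083), and the feedback inhibitor Spry1 (−1.09 ± 0.065) fell. Fgf23, the phosphate hormone, was near the floor (0.0475 ± 0.0683 CPM with vehicle and 0.0515 ± 0.0314 CPM with FG-4592) in both groups. Both lowered FGF genes share exonic bases with another gene. Without such genes, the lowered count was 0 for FGF, 2 for Notch and 2 for BMP and TGF-beta genes. Of 13 IGF genes, only Igfbp4 was called, falling by 1.51 ± 0.080, with Igf1 at 127 ± 5.34 CPM with vehicle and 132 ± 3.00 CPM with FG-4592 (0.06 ± 0.060) and Igfbp3 at −1.45 ± 1.23.

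Few cell cycle and growth genes passed the cutoffs. Of 41 kinetochore, spindle and mitotic genes, 32 were lower at an FDR under 0.05 and none was higher, where 3369 of all 16484 genes tested were lower and 2904 higher. Only Cenpm (−1.40 ± 0.18) passed the cutoff on size (median −0.60). Mki67, a marker of cycling cells, had 272, 278 and 268 CPM with vehicle and 223, 181 and 188 CPM with FG-4592 (−0.47 ± 0.14, adjusted p = 0.017), and Top2a (−0.69 ± 0.13), Cdk1 (−0.64 ± 0.11) and Ccnb1 (−0.54 ± 0.16) were lower too. Of 43 genes of DNA replication and nucleotide synthesis none was called (median −0.24), with Mcm2 at −0.31 ± 0.10, Pcna at −0.16 ± 0.064 and Rrm2 at 0.52 ± 0.13. Of 24 G1 genes, Ccng2, an unconventional cyclin found in arrested cells, had 42.6, 45.0 and 46.8 CPM with vehicle and 133, 132 and 133 CPM with FG-4592 (1.57 ± 0.069) and Ccne2 rose by 1.05 ± 0.094. Myc (0.75 ± 0.074), Ccnd1 (0.51 ± 0.088) and Cdkn1a (0.32 ± 0.052) were higher by less than the cutoff (median 0.08, below 0 with scaling by library size alone and without genes that share exonic bases). None of 48 cytoplasmic ribosomal protein genes was called (median −0.26), Rplp0 being at 1536 ± 84.9 CPM with vehicle and 1428 ± 27.8 CPM with FG-4592 (−0.10 ± 0.065). In RNA from whole cultures, fewer cycling cells and less RNA per cell cannot be told apart.

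**Figure D4:**
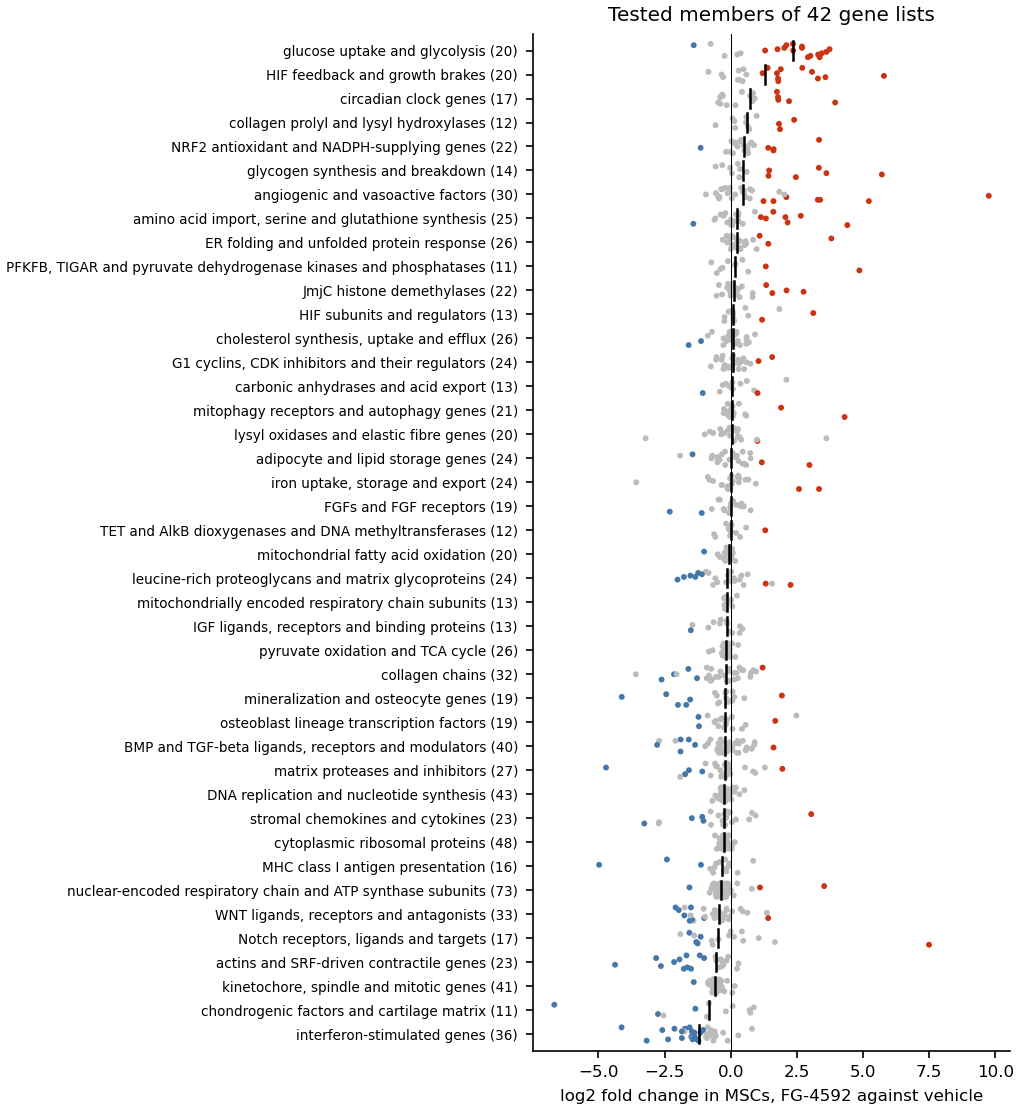
Each row is 1 of 42 gene lists, ordered by its median (black bar), each point is a tested member at its log2 fold change (red, raised; blue, lowered; grey, not called), and the number of tested members stands in brackets. Glycolysis (median 2.36) and HIF feedback genes (1.30, but 0.51 without genes that share exonic bases) stand at the top, interferon-stimulated genes (−1.18) and cartilage genes (−0.82, but −0.15 with the 6 MSC libraries alone) at the bottom, and ribosomal, replication and TCA cycle genes lie in narrow rows without calls.

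Noncoding and pseudogene entries held part of the calls. Of 1587 lncRNA genes, 62 (3.91%) were raised and 132 (8.32%) lowered, beside 4.12% and 5.17% of all genes tested. Gm12758, which shares 2696 exonic bases with another gene, had 0.218, 0.0835 and 0.409 CPM with vehicle and 4.55, 4.25 and 4.03 CPM with FG-4592 (4.15 ± 0.34, and 4.86 without vehicle replicate 3). Gm536 fell by 2.01 ± 0.31 and Gm19522 by 2.01 ± 0.25. Olfr289-ps1, an unprocessed pseudogene, fell by 2.697 ± 0.27. Processed pseudogenes, copies of spliced transcripts, were raised in 92 of 1097 (8.39%) and lowered in 14 (1.28%). Among them were Gm9790 (4.11 ± 0.38) and Pgk1-rs7 (3.67 ± 0.35). With the transcribed ones included, 96 were raised, and 92 of these matched a tested gene over at least 100 bases at 95% identity or more. In 84 of the 92 (91.3%) the matched gene was itself raised, beside 9.6% of all 1042 matched pseudogenes and 1.69% of those not called. Gapdh was the match of 56 raised pseudogenes, out of 63 tested pseudogenes of Gapdh, followed by Gm10358 (6), Ldha (4), Mif (3) and Pgk1 (3). Whether these counts are transcripts of the pseudogenes or reads of the matched genes was not tested.

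**Figure D5:**
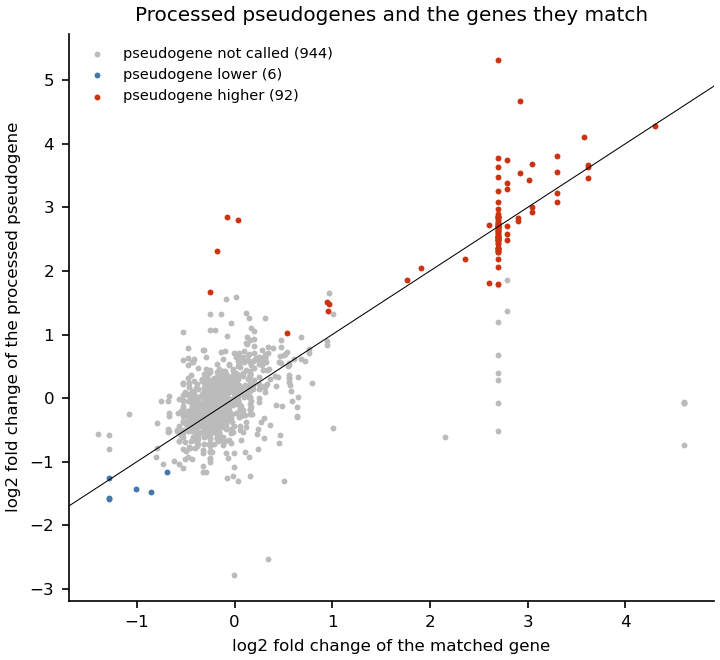
Each point is a processed pseudogene with a matched gene, at the log2 fold changes of that gene (horizontal) and of the pseudogene (vertical), coloured by the pseudogene's own call (red, raised; blue, lowered; grey, not called), with the line of equal change. Most of the 92 raised pseudogenes stand near the line, and the column at 2.69 on the horizontal axis is the matches of Gapdh.

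The MSC response was set beside that of osteocytes, whose 6 libraries are separate from those of the MSCs. Of the 679 genes raised in MSCs, 469 were raised in osteocytes too (69.1% of the MSC genes and 45.5% of the osteocyte genes), where 6.25% of all genes tested were raised. Their median log2 fold change in osteocytes was 1.77, beside 1.96 in MSCs. Of the 853 lowered, 256 were lowered in osteocytes (30.0% of the MSC genes and 36.5% of the osteocyte genes), where 4.26% of all genes tested were lowered. Their median was −0.70 there, beside −1.69 in MSCs. The difference between the responses, tested per gene, passed the cutoffs for 826 genes (5.01%). Among them were 90 of the raised (13.3%) and 297 of the lowered MSC genes (34.8%), of which 55 and 288 had the larger change in MSCs. The MSC libraries both chose these genes and entered the test of the difference, so that a larger change in MSCs is favoured and these counts are a description.

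Among genes called in MSCs and in the test of the difference whose mean count reached 100 in the higher MSC group, the 5 largest differences in each direction are given first. Odf3l2 rose from 0.555 ± 0.291 to 1.63 ± 0.0593 CPM in MSCs (1.56 ± 0.39), beside a log2 fold change of 6.89 ± 1.13 in osteocytes. Tnfrsf9, a receptor of T cell costimulation, rose by 3.41 ± 0.29 in MSCs and 7.49 ± 0.36 in osteocytes, and 2610528A11Rik by 10.74 ± 0.81 in osteocytes. Rarres2 fell in MSCs (−2.98 ± 0.31) and was at 0.71 ± 0.14 in osteocytes, and C4b, a complement protein, was at −1.22 ± 0.21 and 2.07 ± 0.14. In the other direction, Slc7a11 was at 0.94 ± 0.50 and Ndrg2 at 1.73 ± 0.13 in osteocytes, each below the rise in MSCs. Sema7a, a membrane-anchored semaphorin, rose in MSCs (1.19 ± 0.098) and was at −1.36 ± 0.078 in osteocytes, Hr was at 2.75 ± 0.18 and 0.30 ± 0.16, and Hyal1, a hyaluronidase, at 2.09 ± 0.12 and −0.11 ± 0.12. Smaller differences were found in genes described above. Hk2 rose by 3.45 ± 0.089 in MSCs and 1.77 ± 0.084 in osteocytes, and Plod2 by 1.83 ± 0.045 and 0.14 ± 0.045. Vegfa rose less in MSCs (1.24 ± 0.061) than in osteocytes (2.71 ± 0.061), and so did Bsg (2.42 ± 0.062 and 3.66 ± 0.062). Each of these 14 differences passed the cutoffs of the test of the difference.

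The remaining genes with the largest gains or losses in CPM were not members of a strongly changed list. Emp1, an epithelial membrane protein, had 1152, 1156 and 1023 CPM with vehicle and 2884, 2678 and 2689 CPM with FG-4592 (1.31 ± 0.050, adjusted p = 6.6e-12). Plxna2, a semaphorin receptor, fell from 626 ± 17.3 to 248 ± 6.35 CPM (−1.34 ± 0.045) and Pi15, a protease inhibitor, from 404 ± 17.4 to 88.5 ± 5.67 CPM (−2.19 ± 0.11). Abi3bp, a matrix-binding protein, fell from 414 ± 30.2 to 114 ± 9.55 CPM (−1.86 ± 0.071) and Sned1, another matrix protein, from 416 ± 22.2 to 142 ± 9.74 CPM (−1.55 ± 0.072). Selenop, a selenium carrier, was at the edge of the cutoff (−1.02 ± 0.041, and between −0.988 and −0.9995 without vehicle replicate 1 or 2 or FG-4592 replicate 1), and its response in osteocytes was higher by 1.52 (adjusted p of the difference = 8.9e-11).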

How the data were processed

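RNAseq libraries of mRNA were prepared with the KAPA mRNA Hyper Prep kit and read in pairs of 100 bases. For alignment to mm10 the authors used STAR 2.7.2a, and uniquely aligned pairs were assigned to genes of Gencode M22 by featureCounts (Subread 1.6.2), requiring a mapping quality of 10 or more, without a strand option and counting a pair for each gene that it overlaps, so that overlapping and antisense genes share counts. The deposited table holds these raw counts per gene and library, not normalized. Totals are higher than the number of reads that the labels state, and the reason was not tested.

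All 12 libraries were fitted in edgeR 4.0.16 (R 4.3.3) with TMM factors, a coefficient for each of the 4 conditions, 8 residual degrees of freedom and the quasi-likelihood test, after a filter of more than 10 counts in at least 3 libraries. A call needed a log2 fold change beyond 1 in either direction and an FDR (Benjamini-Hochberg) under 0.05. Responses of the cell types were compared by an interaction contrast of the same fit. An exact permutation test of 3 libraries against 3 cannot give a two-sided p under 0.1 for a single gene. On counts simulated for all 12 libraries from the count model that the fit itself assumes, 15853 genes were fitted. The fit recovered 88 of 100 genes changed 3-fold and 99 of 100 changed 6-fold in the MSCs, with 3 false calls. Only genes above a minimum expected count with vehicle were changed, so that recovery at the lowest counts was not tested. CPM were computed on the TMM-scaled total and TPM use the gene lengths of the table. Floors of 3 counts cover counting error only.

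The 42 gene lists (998 of 1098 symbols tested) and the members were chosen with earlier results of these data known. Genes named were the 10 largest fold rises and falls and the 3 largest at the floor in each direction, the 10 largest gains and losses in CPM, in each list the key members and up to 4 of the largest calls in each direction, the 5 largest response differences in each direction, and the 3 largest noncoding rises and falls, and other genes named were chosen after their values were seen. Some genes that the rule names are not reported here. Near-identical stretches were found with blastn 2.17.0 in the transcripts of Gencode M21, with at least 100 bases. Promoters were RefSeq windows, found for 80.3% of the tested protein-coding genes searched. As alternatives, DESeq2 1.42.0, the exact and the likelihood ratio test of edgeR, other size factors and filters, the MSC libraries alone, the replicate number as a block, removal of genes that share exonic bases (GenomicRanges 1.54.1), thinning to the smallest library and each MSC library left out in turn were run.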

Additional observations from a re-analysis of the deposited data

Results flagged for a closer look

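Responses to FG-4592 that differed between osteocytes and MSCs by the interaction contrast of edgeR are given here as the osteocyte log2 fold change minus that of the MSCs. With both responses tested on 3 libraries against 3, the largest positive differences among genes called in MSCs whose mean count reached 100 in the higher MSC group were 5.33 for Odf3l2, 4.09 for Tnfrsf9, 3.69 for Rarres2, 3.49 for 2610528A11Rik and 3.30 for C4b. The largest negative ones were −3.46 for Slc7a11, −3.21 for Ndrg2, −2.54 for Sema7a, −2.46 for Hr and −2.19 for Hyal1. Among the other genes named by the rule, 58 differed past the same cutoffs, 43 with a difference above 0 and 15 below. The groups held 3 libraries each, so that single libraries were not tested for standing apart.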

How the results depend on the processing

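The count of raised genes lay between 622 and 673 and that of lowered genes between 723 and 820 when each MSC library was left out in turn, and the count of genes with a response difference between 729 and 808. Removing genes that share exonic bases leaves 10639 of the 16484 genes to test, so that its counts are out of fewer genes and do not compare as shares. It gave 490 raised, 546 lowered and 561 with a response difference, and the lowered count is the only one of these 3 counts to move by over 1.5 times in any alternative. In the others the counts ran from 627 (library size alone) to 781 (likelihood ratio test) for raised genes and from 716 (the 6 MSC libraries alone) to 997 (likelihood ratio test) for lowered genes. DESeq2 gave 703 and 885, the exact test 749 and 937, no filter 724 and 927, and thinning to the smallest library 683 and 792. Over these alternatives, apart from the removal of overlapping genes, 493 of the raised and 506 of the lowered genes kept their call in all 17. Library size alone moved the median log2 fold change of all genes from −0.045 to −0.13.

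With the replicate number as a block, 653 genes were raised, 791 lowered and 772 differed in response. Deviations of same-numbered vehicle and FG-4592 libraries correlated at −0.025, −0.010 and 0.024, so that the numbers do not pair the libraries. For the genes named by the rule, 4428 values kept their direction and their side of the cutoffs, 61 lost a call and 10 gained one, and 33 values of 13 genes that were not called turned their sign. Hspa5 was at −0.026 with upper-quartile factors, −0.083 with library size alone, −0.0057 without a filter and between −0.036 and 0.078 without 1 library. Asns was at −0.0062 with upper-quartile factors and −0.063 with library size alone, where Igf1 was at −0.029 and Fgf23 at −0.012. Idh3a was at 0.015 with the 6 MSC libraries alone, 0.027 without overlapping genes, 0.032 after thinning and between −0.030 and 0.069 without 1 library, and Dnmt1 at 0.0035 and 0.015 in the first pair and between −0.10 and 0.023 without 1 library. Ndufa4l2 was at 0.017 after thinning. Without 1 library, the ranges were −0.65 to 0.49 for Ndufa4l2, −0.75 to 0.90 for Slc16a3, −0.43 to 1.18 for Car9, −3.20 to 4.03 for Adm, −0.78 to 0.027 for Il6, −0.43 to 2.37 for Fgf23, −0.081 to 0.037 for Col1a1 and −1.81 to 5.37 for Eln. Apart from left-out libraries, calls were lost for Tpm1 (DESeq2, RLE factors, MSC libraries alone, thinning, removal of overlapping genes), Selenop (MSC libraries alone, thinning), Lox (library size alone, upper-quartile factors, no filter), Slc4a4 (the first pair of these), Ccne2 (library size alone), Ccl9 (thinning, removal of overlapping genes), Car2 and Adamts14 (thinning), Actc1 (DESeq2) and Col23a1 (block, MSC libraries alone, removal of overlapping genes). Among printed list medians near 0, that of the HIF subunits was 0.014, that of the TCA cycle −0.26 and that of amino acid and glutathione genes 0.16 with library size alone, that of ribosomal proteins −0.17 without vehicle replicate 2, and that of mitochondrially encoded subunits between −0.25 and −0.039 over all alternatives. Of the counts of list members, 66 of 1512 moved by over 1.5 times, mostly counts of 0 to 5. The cause of these moves was not tested. For genes under 100 counts, which made up 239 of the raised and 435 of the lowered, few reads limit the precision of the fold changes.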
